A study of Mus musculus with 6 samples.

Results

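Transcripts of 7 ion pump genes, 7 of the 24419 gene symbols in the deposited table, were followed in cells of the cortex around an infarct. The genes were taken by symbol: Atp1b1 and Atp1b3, which encode beta subunits of the sodium-potassium pump, Atp2a2, which encodes the calcium pump SERCA2 of the endoplasmic reticulum, and Atp2b1, Atp2b2, Atp2b3 and Atp2b4, which encode the plasma membrane calcium pumps PMCA1 to PMCA4. The 15-HETrE group was made of wild-type male C57BL/6N mice given 15-HETrE, a hydroxylated fatty acid, by vein (600 ng in all, in 150 µL of PBS). The vehicle group was made of mice of the same strain and sex that received vehicle on the same schedule. Injections were made 24, 48 and 72 h after onset, and all animals of both groups had first undergone transient occlusion of the middle cerebral artery for 60 min. On day 4 the tissue beside the infarct was treated with pronase for 75 min, and cells positive for Thy1 and negative for ACSA2, CD31, CD45 and O4 were sorted to enrich neurons. Each group had 3 RNA-seq libraries. The sources used here give neither the ages of the animals nor their number per library. The p-values set the difference between the groups against the spread of libraries within a group, and that spread may therefore be technical. No healthy tissue was included, so every value belongs to injured brain.

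The sodium-potassium pump consists of a catalytic alpha subunit and a glycosylated beta subunit that the alpha subunit needs to reach the cell surface. It spends ATP to move sodium out and potassium into the cell and so maintains the gradients on which neuronal firing depends. When ATP runs out in ischemia the pump stalls, neurons depolarise, and calcium enters. Calcium is then cleared by SERCA pumps, which load it into the endoplasmic reticulum, and by PMCA pumps, which export it and are stimulated by calmodulin. Among the PMCA genes, Atp2b1 is expressed widely, Atp2b2 and Atp2b3 are known mainly from neurons and other excitable cells, and Atp2b4 is found in many tissues.

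The libraries held 5405245 to 22558400 reads assigned to genes, with the lowest depth in the vehicle and 15-HETrE libraries whose column names say combined. They are called vehicle combined and 15-HETrE combined here. The numbered libraries 15-HETrE 1, vehicle 1 and vehicle 2 share a first name prefix, and a further 15-HETrE library, called unnumbered here, has a prefix of its own. What combined and the prefixes stand for is not stated in these sources. Levels are in CPM, read counts relative to the library total as scaled by the authors. The pan-neuronal marker list, 12 genes fixed as markers of neurons, had 0 genes at 0 in any library, and its mean level on the log2(CPM + 1) scale was 7.54 to 8.05 in the 15-HETrE libraries and 6.71 to 7.42 in the vehicle libraries. The label of the cells is neurons, and markers of cells that the gate should remove were also present, with 0 of 8 oligodendrocyte genes and 0 of 8 astrocyte genes at 0 in any library. The astrocyte list reached 8.68 in 15-HETrE combined and 7.89 in vehicle combined, against 5.76 and 6.12 in the other 15-HETrE libraries and 4.74 and 5.41 in the other vehicle libraries. The oligodendrocyte list lay at 9.63 to 10.8 in the 15-HETrE libraries and at 9.68 to 10.3 in the vehicle libraries, and the fibroblast list at 3.36 to 7.10 and at 3.61 to 8.73. In these bulk samples fewer cells of a type and less RNA per cell cannot be told apart.

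The comparison of 15-HETrE with vehicle asked whether transcripts of the pumps differed between the treatments. Of the 7 genes, 6 had a higher mean log2 level in the 15-HETrE libraries, and Atp1b3 had a lower one. The widest difference was that of Atp2b2, whose level was 2.53-fold higher in 15-HETrE and whose libraries did not overlap between the groups. None of the 7 genes passed the test over all genes. All 7 were kept by the filter at a mean of 1 CPM, and limma with Benjamini-Hochberg adjustment over 14523 genes called 0% of genes as higher and 0% as lower at an adjusted p of 0.05; edgeR called 0 genes as well. At an unadjusted p under 0.05 stood 1380 genes in limma and 1232 in edgeR, and of the pumps 1 in limma, Atp2b2. The pumps had a median log2 fold change of 0.47, beside 0.02 over all genes tested, of which 51.0% had a positive one. Libraries did not overlap and were higher in 15-HETrE for 1 of the 7 pumps and for 6.84% of genes tested, and they were lower without overlap for 0 of the 7 pumps and for 8.32% of genes tested. The library 15-HETrE 1 had the highest level of 6 pumps, and vehicle combined had the lowest level of 4.

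**Figure D1:**
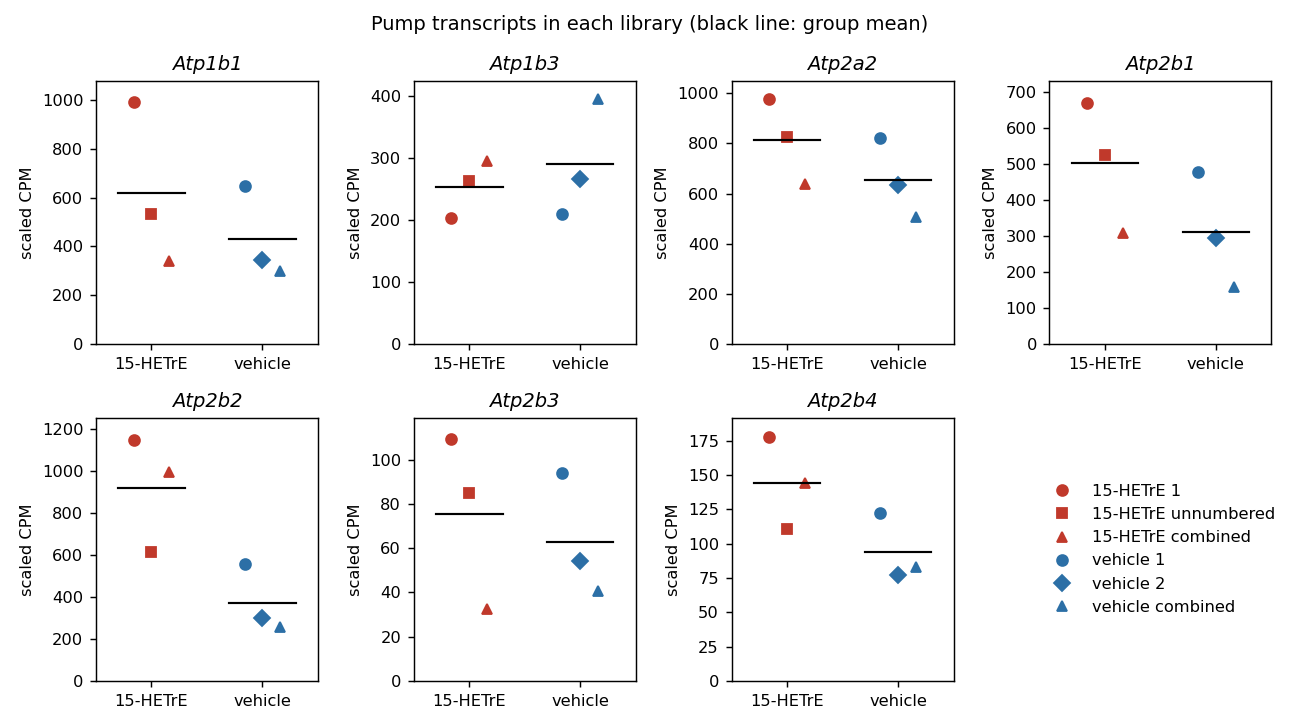
Level of each pump transcript in scaled CPM (vertical axis, from 0) in the 3 15-HETrE libraries (red) and the 3 vehicle libraries (blue), with a symbol for each library and a black line at each group mean. Atp2b2 is the gene whose groups do not overlap, with 616 to 1149.6 CPM in 15-HETrE and 259 to 555 CPM in vehicle.

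Atp2b2 (chromosome 6, 113743831 to 114042613, GRCm38, minus strand) encodes PMCA2, a calcium exporter of neurons and of the sensory hair cells of the inner ear. It had 1149.6, 616 and 993 CPM in 15-HETrE 1, 15-HETrE unnumbered and 15-HETrE combined, against 555 and 301 CPM in vehicle 1 and vehicle 2 and 259 CPM in vehicle combined. The lowest 15-HETrE library thus stood a little above the highest vehicle library, and the other libraries were further apart. Group means were 919.7 ± 274 CPM in 15-HETrE and 372 ± 160.4 CPM in vehicle (SD, n = 3 each). The log2 fold change was 1.34 (SE 0.35, 95% interval 0.55 to 2.13), with an unadjusted p of 0.00348 and an adjusted p of 0.394 (limma). Of all genes tested, 97.5% had a smaller log2 fold change. Between libraries of the first prefix the log2 difference was 1.49, and between the combined libraries it was 1.94. Leaving out each library in turn gave log2 fold changes between 1.12, without vehicle combined, and 1.67, without vehicle 1. DESeq2 called the gene with a log2 fold change of 1.32 and an adjusted p of 0.0297, among 165 genes called, and limma with library weights gave 1.53 with an adjusted p of 0.00254, among 2425 genes called. The lowest read number behind these values was 1440, in vehicle combined, so the spread between libraries rather than counting error set the precision.

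The bases before the start site are shown for Atp2b2, for Atp1b1 and for Atp1b3, the genes with the widest positive difference, with the highest level per length and with the negative difference. Each run is the 250 bases before the outermost start in RefSeq (GRCm38.p6), written 5′ to 3′ on the minus strand, on which all of them lie. The windows are chr6:114042081-114042330, chr1:164458356-164458605 and chr9:96364432-96364681, in the order of the genes named. Capitals mark matches on either strand to the GC box GGGCGG, the CCAAT box CCAAT, the E-box CACGTG, the cyclic AMP response element TGACGTCA or the TATA box TATAAA.
Atp2b2: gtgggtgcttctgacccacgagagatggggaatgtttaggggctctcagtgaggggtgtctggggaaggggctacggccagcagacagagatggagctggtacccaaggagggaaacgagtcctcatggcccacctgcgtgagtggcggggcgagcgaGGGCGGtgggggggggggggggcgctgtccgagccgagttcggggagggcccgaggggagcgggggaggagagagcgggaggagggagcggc
Atp1b1: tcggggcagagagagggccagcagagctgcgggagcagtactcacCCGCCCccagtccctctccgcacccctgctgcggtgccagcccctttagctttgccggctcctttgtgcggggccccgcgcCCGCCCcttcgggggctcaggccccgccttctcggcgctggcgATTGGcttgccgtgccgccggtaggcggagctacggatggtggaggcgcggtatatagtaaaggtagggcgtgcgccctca
Atp1b3: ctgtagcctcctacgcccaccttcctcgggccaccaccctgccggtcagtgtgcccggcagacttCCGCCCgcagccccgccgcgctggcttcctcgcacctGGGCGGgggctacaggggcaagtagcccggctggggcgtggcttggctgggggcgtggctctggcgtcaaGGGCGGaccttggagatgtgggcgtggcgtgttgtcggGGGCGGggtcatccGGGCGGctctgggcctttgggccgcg

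All the capitals in the Atp2b2 and Atp1b3 windows are GC boxes, 1 in Atp2b2 and 5 in Atp1b3. The Atp1b1 window holds 2 GC boxes and 1 CCAAT box. Of 32851 windows of the same length, 32.7% hold a GC box, 33.8% a CCAAT box, 6.02% the E-box, 1.55% the cyclic AMP response element and 12.4% the TATA box. The cyclic AMP response element and the TATA box had no match in the windows of the 5 pump genes with an entry, Atp1b1, Atp1b3, Atp2b1, Atp2b2 and Atp2b4, and the E-box matched in the second start of Atp1b3. GC content was 69.6% for Atp2b2, 70.4% for Atp1b1, 73.6% for Atp1b3 and 78.4% for Atp2b1 at their outermost listed starts, against a median of 52.4% over all windows. The listed start of Atp2b4 lies inside the gene, with its window at chr1:133753748-133753997, while the annotated gene on the minus strand begins at 133801041. This window had a GC content of 45.6% and 2 CG dinucleotides, where the median window holds 6. The Atp2b2 window shown also lies inside the annotated gene, which begins at 114042613 on the minus strand. Most of the outermost Atp2b1 window, chr10:98914392-98914641, is likewise inside its gene, which begins at 98914406 on the plus strand. The bases before the outermost annotated starts of Atp2b4 and Atp2b2 were not examined. The other listed starts of Atp2b2, further inside the gene, had a GC content of 52.0% and 55.6%. The deposited values are per gene, so they do not show which start was used.

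Atp2b1 (chromosome 10, 98914406 to 99026143, plus strand) encodes PMCA1, the form found in most cells. It had 671, 527 and 309 CPM in the 15-HETrE libraries numbered 1, unnumbered and combined, against 478, 297 and 160.1 CPM in the vehicle libraries numbered 1, numbered 2 and combined. The groups overlapped because 15-HETrE combined lay below vehicle 1. This gave a log2 fold change of 0.75 (SE 0.41, 95% interval -0.17 to 1.67, adjusted p 0.605, limma). It was 0.83 between libraries of the first prefix and 0.95 between the combined libraries. With library weights it was also 0.83 and passed the test (adjusted p 0.0465, limma), among 2425 of 14523 genes called. Without vehicle combined it was 0.34, and without vehicle 1 it was 1.13.

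Atp2b4 (chromosome 1, 133699457 to 133801041, minus strand) encodes PMCA4, and its transcript was the least abundant of the pumps per length. Its levels were 178, 110.8 and 144 CPM in the 15-HETrE libraries in the same order, against 122, 77.2 and 82.9 CPM in the vehicle libraries. The overlap came from vehicle 1, which stood above 15-HETrE unnumbered. Treatment and vehicle differed by a log2 fold change of 0.61 (SE 0.28, 95% interval -0.02 to 1.24, adjusted p 0.541, limma), with 0.86 between libraries of the first prefix and 0.79 between the combined libraries. With library weights the value was 0.86 and passed the test (adjusted p 0.0191, limma), among 2425 of 14523 genes called.

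Atp2b3 (chromosome X, 73503086 to 73571005, plus strand) encodes PMCA3, a form restricted largely to brain. It had 109 and 85.0 CPM in 15-HETrE 1 and 15-HETrE unnumbered and 32.4 CPM in 15-HETrE combined, against 93.8 and 54.1 CPM in vehicle 1 and vehicle 2 and 40.6 CPM in vehicle combined. Thus 15-HETrE combined held the lowest level of all 6 libraries while 15-HETrE 1 held the highest. The log2 fold change was 0.18 (SE 0.47, 95% interval -0.85 to 1.22, adjusted p 0.924, limma). Its sign was not stable: it was 0.61 between libraries of the first prefix and -0.32 between the combined libraries, -0.17 without 15-HETrE 1 and -0.08 without vehicle combined. The counts in the combined libraries were 240 reads in 15-HETrE and 226 reads in vehicle.

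**Figure D2:**
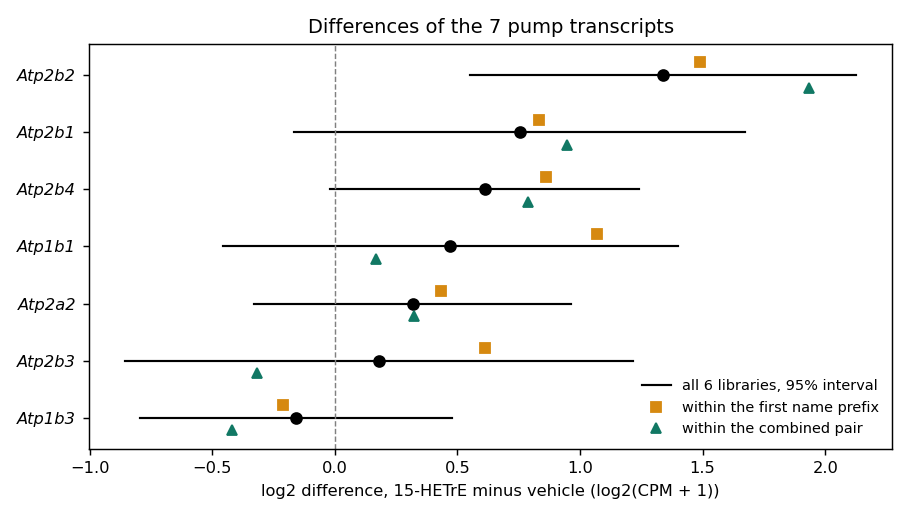
Difference of each pump transcript between 15-HETrE and vehicle on the log2(CPM + 1) scale (horizontal axis), with the limma 95% interval over all 6 libraries (black point and line), the difference between libraries of the first name prefix (orange square) and between the combined libraries (green triangle). The interval of Atp2b2, 0.55 to 2.13, lies above 0, and those of the other 6 genes include 0.

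In the endoplasmic reticulum, Atp2a2 (chromosome 5, 122453513 to 122502225, minus strand) provides SERCA2, the form of that pump used by most cells. It had 975, 825 and 637 CPM in 15-HETrE 1, unnumbered and combined, against 823, 634 and 509 CPM in the vehicle libraries 1, 2 and combined. Its levels ran from 509 to 975 CPM over the libraries, and its groups overlapped. The log2 fold change was 0.32 (SE 0.29, 95% interval -0.33 to 0.96, adjusted p 0.750, limma). It was 0.43 between libraries of the first prefix and 0.32 between the combined libraries, but 0.15 without vehicle combined and 0.17 without 15-HETrE 1.

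Atp1b1 and Atp1b3, the beta subunit genes among the pumps, pointed in opposite directions. Atp1b1 (chromosome 1, 164437109 to 164458355, minus strand), which encodes the beta subunit typical of neurons, had 991, 531 and 339 CPM in 15-HETrE 1, unnumbered and combined, against 647, 343 and 301 CPM in vehicle libraries 1, 2 and combined. The SD of the 15-HETrE group exceeded the difference of the means and that of the vehicle group was about as large, with 620.4 ± 335 CPM in 15-HETrE and 430.4 ± 189 CPM in vehicle (SD, n = 3 each). The fitted log2 fold change was 0.47 (SE 0.42, 95% interval -0.46 to 1.40, adjusted p 0.740, limma), and it was 0.06 without 15-HETrE 1. Between libraries of the first prefix it was 1.07, and between the combined libraries 0.17. The exons of Atp1b1 overlap those of Nme7 on the opposite strand over 18.7% of their length. The sources used here do not say whether strand was used in counting, so some reads of this gene may not be told apart from those of Nme7.

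Atp1b3 (chromosome 9, 96332655 to 96364442, minus strand) encodes a beta subunit expressed in many cell types. It had 204, 263 and 295 CPM in 15-HETrE 1, unnumbered and combined, against 210.2, 266 and 395 CPM in vehicle libraries 1, 2 and combined. It was highest in vehicle combined and lowest in 15-HETrE 1, the reverse of Atp1b1 and Atp2b2 in both respects. The log2 fold change was -0.16 (SE 0.29, 95% interval -0.80 to 0.48, adjusted p 0.879, limma), with -0.21 between libraries of the first prefix and -0.42 between the combined libraries. Without vehicle combined it was 0.09 on the same scale.

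Divided by the length of all annotated exons, the beta subunit and SERCA2 transcripts had higher medians than the PMCA transcripts. Median levels over the 6 libraries were 142 CPM per kb for Atp1b1, 120.0 for Atp2a2, 110.7 for Atp1b3, 46.4 for Atp2b2, 25.9 for Atp2b1, 14.4 for Atp2b3 and 9.52 CPM per kb for Atp2b4. Atp1b1 stood above Atp2a2 in 6 of 6 libraries, while Atp2a2 stood above Atp1b3 in 3, so the order of Atp2a2 and Atp1b3 was not resolved. Atp1b3 stood above Atp2b2 in 5 libraries, the exception being 15-HETrE 1. Atp2b2 stood above Atp2b1 in 6 of 6 libraries and Atp2b1 above Atp2b3 in 6 of 6. Atp2b3 stood above Atp2b4 in 5 libraries. The order rests in part on the length used. With the longest annotated transcript, Atp2b1 counted as 7130 bases in place of 15218, its median became 55.2 CPM per kb, and Atp2b2, with 66.0 CPM per kb, stood above it in 3 of 6 libraries.

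Shares within a library do not depend on the scaling between libraries. They do depend on the length used, here that of all annotated exons. By this length the share of Atp2b2 differed by 12.9 percentage points between 15-HETrE and vehicle, and that of Atp2b3 by -6.78. With the longest annotated transcript these differences were 11.9 and -4.78 percentage points. Atp2b2 took 52.9%, 44.3% and 67.0% of the PMCA total per length in 15-HETrE 1, unnumbered and combined, against 42.0%, 39.2% and 44.4% in vehicle 1, vehicle 2 and vehicle combined. The groups overlapped by the 15-HETrE unnumbered and vehicle combined libraries, and the means were 54.7% ± 11.4 in 15-HETrE and 41.8% ± 2.61 in vehicle (SD, n = 3 each; exact two-sided permutation test, p = 0.2). Atp2b3 took 13.2%, 16.0% and 5.72% in the 15-HETrE libraries, against 18.5%, 18.4% and 18.2% in the vehicle libraries. Here all 15-HETrE libraries lay under all vehicle libraries (exact two-sided permutation test, p = 0.1, the smallest that 3 against 3 allows). The vehicle libraries were nearly equal, with an SD of 0.161 percentage points, against 5.31 percentage points in 15-HETrE. The share of Atp2b3 differed by -5.33 percentage points between libraries of the first prefix and by -12.5 between the combined libraries. The PMCA shares of a library add to the whole, so a higher share of Atp2b2 leaves less for the other genes together. A lower share of Atp2b3 is therefore not a lower level of its transcript, whose log2 fold change was 0.18. In 15-HETrE and vehicle, Atp2b1 averaged 24.8% ± 7.11 and 28.2% ± 4.87 (exact two-sided permutation test, p = 0.6), and Atp2b4 averaged 8.87% ± 0.981 and 11.5% ± 2.74 (exact two-sided permutation test, p = 0.2). The PMCA total was 172, 110.2 and 118 CPM per kb in the 15-HETrE libraries, against 104.9, 60.9 and 46.3 CPM per kb in the vehicle libraries, so the totals did not overlap. Atp1b1 was also set against the sum of Atp1b1 and Atp1b3 per length. Further beta subunits of the pump were measured but are not in this sum. Atp1b1 took 79.0%, 61.0% and 47.1% of it in 15-HETrE 1, unnumbered and combined. Its share was 70.5%, 50.04% and 37.1% in vehicle 1, vehicle 2 and vehicle combined. The groups overlapped (exact two-sided permutation test, p = 0.5), with a difference of 18.8 percentage points between libraries of the first prefix and of 9.96 between the combined libraries. In all, 5 shares were tested, and with 3 against 3 libraries none could have passed 0.05.

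**Figure D3:**
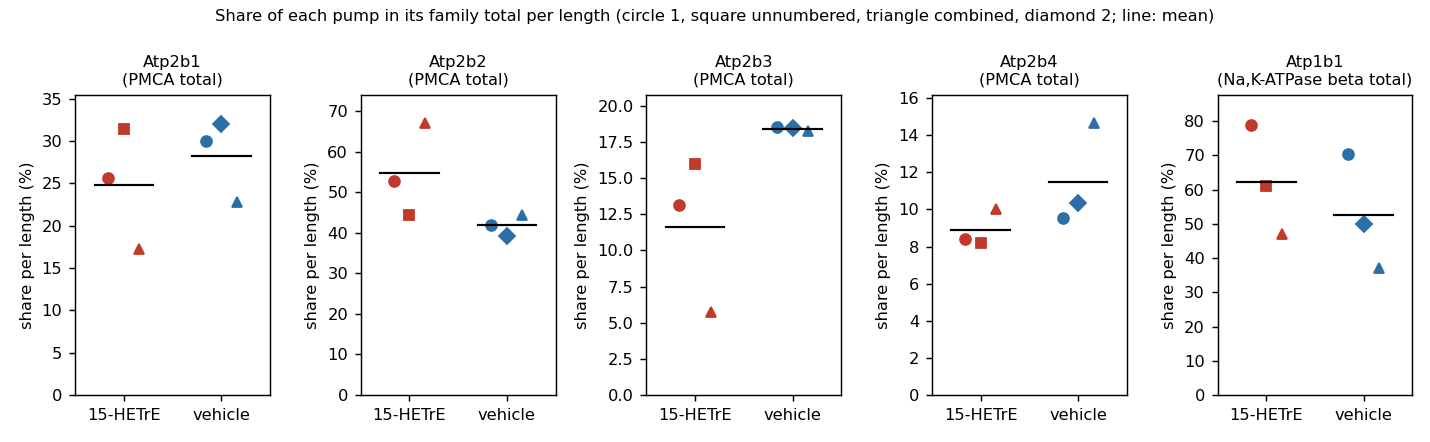
Share of each PMCA gene in the PMCA total per length, and of Atp1b1 in the sum of Atp1b1 and Atp1b3 per length (vertical axes in percent, from 0), in the 15-HETrE libraries (red, left) and the vehicle libraries (blue, right), with a symbol for each library and a line at the group mean. The Atp2b3 share is 18.2% to 18.5% in vehicle and 5.72% to 16.0% in 15-HETrE.

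The pan-neuronal markers were also higher in 15-HETrE, without overlap. As a list they differed by 0.83 on the log2 scale between 15-HETrE and vehicle, by 0.99 between libraries of the first prefix and by 1.03 between the combined libraries, and 11 of the 12 were higher in 15-HETrE. When the pan-neuronal level of the same library was subtracted from each pump, 6 of the 7 differences were negative, as were 89.9% of all genes tested, whose median was -0.81. Atp2b2 remained higher, at 2.11, 1.73 and 2.16 in 15-HETrE 1, unnumbered and combined, against 1.70, 1.53 and 1.26 in vehicle 1, vehicle 2 and vehicle combined (log2 units above the marker level). The difference of 0.51 was smaller than the 1.34 seen without the markers, and its groups were only just apart (exact two-sided permutation test, p = 0.1, the smallest possible). On this scale libraries did not overlap and were higher in 15-HETrE for 0.351% of genes tested, and were lower without overlap for 32.4%. Atp2a2 and Atp2b4 were lower in 15-HETrE relative to the markers, with differences of -0.51 and -0.22, also without overlap (exact two-sided permutation test, p = 0.1 for each), values less negative than the median of all genes. The relative differences of Atp1b3, Atp2b3, Atp1b1 and Atp2b1 were -0.99, -0.65, -0.36 and -0.08, with overlapping libraries. Astrocyte markers differed by 0.84 in the same comparison and fibroblast markers by -1.90; their part in the levels of the pumps was not tested.

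**Figure D4:**
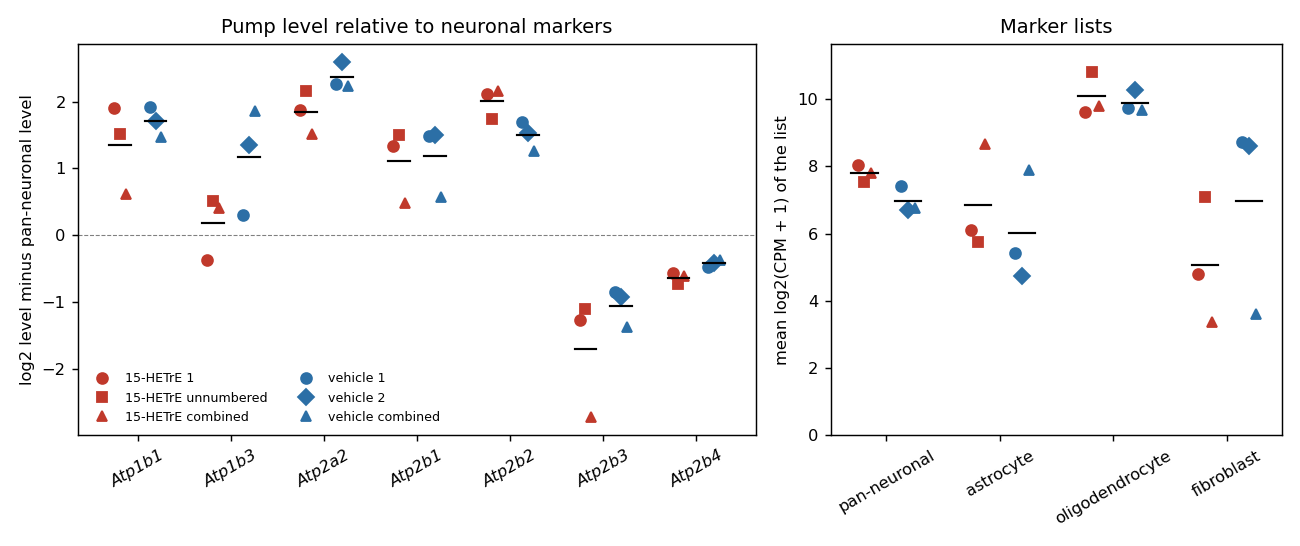
Left, log2(CPM + 1) of each pump minus the mean of the 12 pan-neuronal markers in the same library; right, mean log2(CPM + 1) of 4 marker lists. In each pair 15-HETrE libraries (red) stand left of vehicle libraries (blue), symbols mark the libraries and lines the group means; Atp2b2 lies at 1.73 to 2.16 in 15-HETrE and at 1.26 to 1.70 in vehicle relative to the markers.

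Other genes of sodium and calcium handling were followed in 8 lists of 55 genes, of which 46 were tested. None was called, and 35 had a positive and 11 a negative log2 fold change, beside 51.0% positive over all genes tested. Their median was 0.33, beside 0.02 over all genes tested. Libraries did not overlap and were higher in 15-HETrE for 3 of them, beside 6.84% of all genes tested, and were lower without overlap for 0. Fxyd7, a small membrane protein that modulates the sodium-potassium pump in brain, had 17.3, 16.4 and 18.7 CPM in the 15-HETrE libraries, against 11.2, 4.18 and 8.63 CPM in the vehicle libraries. Slc8a1, a sodium-calcium exchanger of the plasma membrane, had 553, 487 and 459 CPM in 15-HETrE, against 352, 228 and 282 CPM in vehicle, a log2 fold change of 0.81 (adjusted p 0.422, limma). Calb1, the cytosolic calcium buffer calbindin, had 127, 58.7 and 73.7 CPM in 15-HETrE, against 53.7, 23.8 and 18.7 CPM in vehicle, a log2 fold change of 1.47 (adjusted p 0.415, limma). With 3 of 46 genes, the share without overlap was near that of all genes tested.

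By list, all 5 tested alpha and further beta subunits of the sodium-potassium pump had a positive log2 fold change, with a median of 0.54, as had 4 of 5 FXYD regulators, with a median of 0.28. Of the partners of PMCA pumps 4 of 5 were positive, with a median of 0.32. Calm2 and Calm3, which encode calmodulin, the protein that stimulates PMCA pumps, stood at 0.32 and 0.62 as log2 fold changes, and their groups overlapped. Release and store-operated entry channels of the endoplasmic reticulum were positive for 9 of 11, with a median of 0.11, and Itpr1, a receptor for inositol trisphosphate, had 655 ± 330 CPM in 15-HETrE and 323 ± 114 CPM in vehicle (SD, n = 3 each). Exchangers and the mitochondrial uniporter were positive for 9 of 11, with a median of 0.36. Of the other SERCA and secretory pathway pumps 1 of 2 was positive, with a median of 0.13, and Pln, the phospholamban that restrains SERCA pumps, was the 1 tested SERCA regulator. Its log2 fold change was 1.42 (adjusted p 0.581, limma) with overlapping libraries, 0.13 between libraries of the first prefix and 2.77 between the combined libraries, where vehicle combined had 1.26 CPM. Calcium buffers and chaperones of the endoplasmic reticulum differed in sign, with 2 positive and 4 negative and a median of -0.47. Calr and Hspa5, chaperones that bind calcium in that compartment, had 208 ± 54.2 and 282 ± 56.9 CPM in 15-HETrE, against 367 ± 139 and 552 ± 265 CPM in vehicle, with overlapping libraries.

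The library profiles of the pumps were compared as root mean square differences of their centred log2 levels over the 6 libraries, where 0 means the same profile. Among the pumps the closest pair was Atp1b1 and Atp2b3, at 0.27, and the most distant was Atp1b3 and Atp2b2, at 1.02. Among 4396 other genes that averaged 50 CPM or more, the profile nearest to Atp2b2 was that of Camkk2, a calcium- and calmodulin-dependent kinase kinase, at 0.12, followed by Stx1a, a presynaptic syntaxin, at 0.14, where the median gene stood at 0.84. Nearest to Atp1b1 were the calcium channel genes Cacna1g, at 0.12, and Cacna2d3, at 0.15. Nearest to Atp2b1 were Sprn and Clstn1, at 0.07 and 0.08, to Atp2b3 Serpini1 and Atl1, at 0.10 and 0.19, and to Atp2b4 Tspyl4 and Kalrn, at 0.06 and 0.08. Atp2a2 was followed by Ociad1 and Atrnl1, at 0.05 and 0.08, and Atp1b3 by Mpp5 and Tsc22d2, at 0.06 and 0.09. With 6 points behind each profile, these names only describe the libraries.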

How the data were processed

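RNA was measured in 3 15-HETrE and 3 vehicle libraries made with a low-input kit, per the labels' protocols. The submitters' processing notes name mm10 and the tools edgeR, featureCounts, HISAT2 and Trimmomatic; the sources used here give no version, setting or annotation for them. The deposited values are a signal, CPM further scaled by the authors with a factor per library. Of values above 0, 100% were whole multiples of what 1 read is worth in their library (tolerance 1e-04 reads), which recovers the reads. The test had been written for CPM and was applied to these values. Groups come from column names. The number of unmapped columns was 0.

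Genes averaging 1 CPM or more were fitted in limma 3.58.1 (R 4.3.3) as log2(CPM + 1), a pseudocount of 1 that understates low genes, with treatment as the only term, a variance trend, and two-sided Benjamini-Hochberg adjustment over all genes at 0.05. Fold changes are 15-HETrE minus vehicle. Counts were tested with edgeR 4.0.16 and DESeq2 1.42.0. The scripts were tested on simulated data. Positions and lengths are those of GENCODE M21 (GRCm38, to which mm10 corresponds), and promoter windows from RefSeq. Members, lists and tests were chosen with earlier results of these data known. Named genes are the pumps, listed genes without overlap at a mean of at least 10 CPM, up to 3 others per list by level, and the 2 nearest profiles per pump; not all of those taken are given.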

Additional observations from a re-analysis of the deposited data

How the results depend on the processing

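In the alternatives tried, the pumps kept the sign of their difference except as given here. Without each library in turn, Atp1b3 ranged from -0.37 to 0.087, positive without vehicle combined, and Atp2b3 from -0.17 to 0.70, negative without 15-HETrE 1 and without vehicle combined (-0.08). Between the combined libraries Atp2b3 was at -0.32. Relative to the pan-neuronal markers, an alternative chosen after seeing the data like the within-prefix values, Atp1b1, Atp2a2, Atp2b1, Atp2b3 and Atp2b4 turned to -0.36, -0.51, -0.077, -0.65 and -0.22. The Atp2b1 share ranged from -6.81 to 0.27 percentage points without each library in turn, positive without 15-HETrE combined. Without 15-HETrE combined the share differences of Atp2b2 and Atp2b3 were 6.75 and -3.82 percentage points, without vehicle combined that of Atp2b4 was -1.07, and without 15-HETrE 1 that of Atp1b1 was 1.51. Library weights, which gave vehicle combined the lowest weight, 0.206, brought Atp2b1 (0.83, adjusted p 0.0465), Atp2b2 (1.53, adjusted p 0.00254) and Atp2b4 (0.86, adjusted p 0.0191, all limma) past the test. With these weights 2425 of 14523 genes tested were called, 1059 higher and 1366 lower in 15-HETrE. In the pathway lists 13 of 46 genes tested were called, 10 higher and 3 lower. DESeq2 brought Atp2b2 past it (1.32, adjusted p 0.0297) and called 165 genes. Over the other alternatives the adjusted p of Atp2b2 went up to 0.912. Without each library in turn 0 to 110 genes were called, 110 without vehicle combined; without both combined libraries 204 were called, and with the prefix as a batch term 8. Other pseudocounts (0.5 and 5), no filter or one at 5 CPM, other scaling factors and edgeR left the pumps uncalled, and the median of the pumps stayed between 0.17 and 0.81 without each library in turn. The cause of these changes was not tested. No paired analysis was possible because only the number 1 is shared between the groups' columns; the prefix term groups libraries by name and pairs none. Depth limits Atp2b3 most, with 226 to 2403 reads; the number of libraries limits the p-values of single shares, which cannot go below 0.1.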
